A study of Mus musculus with 36 samples.

Results

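Blood transcripts at week 2 of pump dosing were compared with those at week 0 in Townes sickle cell mice, with both treatment arms pooled. All 12 libraries titled WK2 and all 12 titled WK0 were taken, which is 24 of the 36 libraries of the series, and the arm and the dose were terms of the model. The pooled contrast estimates the change averaged over both arms. A change mostly in either arm alone can also give a call, and an effect of MIR29B by week 2 is not removed. Townes mice, a model of sickle cell disease in which human globins replace those of the mouse, were the animals of every group. Each week held 4 groups of 3 libraries: a scrambled (Scr) control at 2 mg/kg, the scrambled control at 3 mg/kg, MIR29B at 2 mg/kg and MIR29B at 3 mg/kg. The agents were given from a mini-osmotic pump, a small device placed in the animal that releases its content continuously. MIR29B is named in the series title as cholesterol-modified. There was no group without a pump or without an oligonucleotide, so time, pump, agent, bleeding and handling cannot be told apart. The labels give neither the age of the mice nor whether week 0 blood preceded dosing, nor whether one animal was bled more than once. The p-values below therefore measure the spread between these libraries.

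The tissue is labelled peripheral blood and the cell type erythrocytes. Red cell markers summed to 66000 to 128000 CPM (counts scaled to library size by TMM) at week 0, and markers of neutrophils, monocytes, platelets, B cells, T cells and NK cells were all detected. The material is thus read as globin-depleted whole blood RNA in what follows, not as purified red cells. Library totals ran from 17.87 to 31.48 M counts at week 0 and from 10.7 to 45.65 M at week 2. Ribosomal RNA exceeded 5% of counts in 3 libraries, the scrambled 2 mg/kg replicate 1 at week 0 (5.09%) and the MIR29B 2 mg/kg replicates 2 and 3 at week 2 (15.05% and 9.15%). An index of how far a library favours long over short transcripts had a median of 0.0845 at week 0 and -0.081 at week 2, and was lowest in the MIR29B 2 mg/kg replicate 2 at week 0 (-0.463) and the scrambled 3 mg/kg replicate 1 at week 2 (-0.584). Calls lost without these libraries are given beside the result.

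As background, the cells of blood answer injury, foreign material and microbial products through Toll-like receptors, the interleukin-1 receptor and the TNF receptor. These pathways release NF-kappa-B from its inhibitor IkB-alpha, the product of Nfkbia. NF-kappa-B and AP-1 then switch on chemokines, cytokines and their own feedback inhibitors within hours. Neutrophils, short-lived cells released from bone marrow, carry many of these transcripts. Interferons use a separate pathway, in which STAT and IRF factors bind elements of the promoters of antiviral genes. Sickle cell disease is known for chronic haemolysis, high neutrophil counts and sterile inflammation.

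The promoter sequences that follow show the 2 classes of element on which these pathways act, in genes whose week 2 levels moved in opposite directions. Each is the 150 bases before an annotated start site, 5′ to 3′ on the strand of the gene, from the RefSeq table for GRCm38.p6. Capitals mark matches to the kappa-B consensus in the first 3, and to GAAANNGAA, a core that IRF factors read in interferon-stimulated response elements, in the last 3, read on either strand. The genes were picked by hand and only windows with a match are shown, so they do not stand for the called genes as a whole.
Nfkbia, chr12:55492648-55492797, minus strand: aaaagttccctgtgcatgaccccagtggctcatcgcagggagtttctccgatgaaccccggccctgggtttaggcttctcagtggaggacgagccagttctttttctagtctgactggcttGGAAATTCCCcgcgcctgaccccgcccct
Cxcl1, chr5:90891095-90891244, plus strand: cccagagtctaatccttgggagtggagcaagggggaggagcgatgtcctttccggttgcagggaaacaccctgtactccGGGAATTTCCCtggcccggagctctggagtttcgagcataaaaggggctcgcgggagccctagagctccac
Cxcl2, chr5:90903749-90903898, plus strand: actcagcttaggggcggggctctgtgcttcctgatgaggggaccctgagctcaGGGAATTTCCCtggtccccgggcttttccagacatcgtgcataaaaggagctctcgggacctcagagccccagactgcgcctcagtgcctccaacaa
Ifit1, chr19:34640739-34640888, plus strand: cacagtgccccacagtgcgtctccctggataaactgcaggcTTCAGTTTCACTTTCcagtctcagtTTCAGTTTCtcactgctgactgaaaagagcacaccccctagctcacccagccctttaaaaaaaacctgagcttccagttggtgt
Gbp7, chr3:142530186-142530335, plus strand: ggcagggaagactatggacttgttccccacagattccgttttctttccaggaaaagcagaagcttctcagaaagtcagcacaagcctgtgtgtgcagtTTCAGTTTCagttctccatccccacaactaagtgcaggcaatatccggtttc
Rsad2, chr12:26456453-26456602, minus strand: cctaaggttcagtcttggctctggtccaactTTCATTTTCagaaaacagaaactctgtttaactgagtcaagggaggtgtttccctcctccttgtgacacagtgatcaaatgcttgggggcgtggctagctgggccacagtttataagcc
The kappa-B consensus was found on either strand in the 250 bases before a start in 4.56% of the 11804 windows of all tested genes, in 5.9% of those of genes called higher and in 3.63% of those of genes called lower. The form GGGAATTTCC, seen in Cxcl1 and Cxcl2 and on the other strand in Nfkbia, lay in 13 of the 11804 windows (0.11%) and in 5 of the 780 windows of genes called higher (0.641%). This form was taken from the promoter of Cxcl1, itself a gene called higher. Its larger share among genes called higher is partly built in by that choice and is not read as a result. GAAANNGAA lay in 6.47% of all windows, in 7.05% of those of genes called higher and in 8.71% of those of genes called lower. TGANTCA, the AP-1 site, lay in 4.52% of all windows, 5.13% of those of genes called higher and 3.63% of those of genes called lower. Most called genes therefore hold none of these letters in this window. GGGAATTTCC is one of the forms of the kappa-B consensus, so their counts overlap. A match is a run of letters and was not tested as a binding site. The agent of the MIR29B arm is shown by the mouse miR-29b-3p of the same RefSeq build, with the seed (bases 2 to 8) in capitals, since the labels do not print the synthetic strand.
mmu-miR-29b-3p: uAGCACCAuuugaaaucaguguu

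Of 11678 genes tested, 735 were higher at week 2 (6.29%) and 536 lower (4.59%) at a Benjamini-Hochberg adjusted p under 0.05 in edgeR's quasi-likelihood F test, and 3241 (27.8%) had an unadjusted p under 0.05. The median log2 fold change (week 2 over week 0, here and below) was -0.02 over all genes, 0.96 over those called higher and -1.09 over those called lower. More than a 2-fold change was fitted for 342 of the genes called higher and 318 of those called lower. All calls in the lists of neutrophil genes, NF-kappa-B genes, chemokines and activated myeloid effectors were higher, and all calls in the lists of interferon-stimulated genes lower. Without the 3 libraries over 5% ribosomal RNA, 358 genes were called higher and 243 lower, in a fit that also has fewer libraries.

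**Figure D1:**
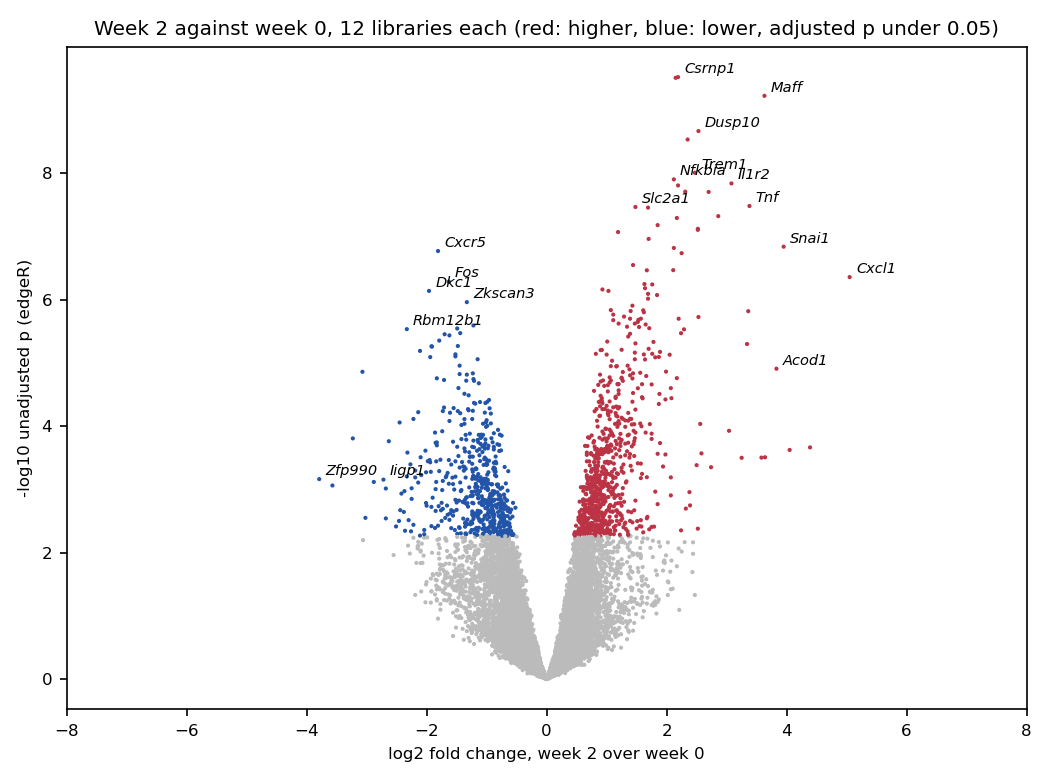
Each point is 1 of the 11678 genes tested, with the log2 fold change of week 2 over week 0 on the horizontal axis and -log10 of the unadjusted edgeR p on the vertical axis. Red points are the 735 genes called higher and blue points the 536 called lower, and the smallest p-values belong to genes that rose.

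The 12 libraries of week 2 all lay above the 12 of week 0 for only 11 genes (0.0942% of those tested), namely Arf1, Bhlhe40, Borcs6, Cdkn1a, Clptm1, Csrnp1, Junb, Maff, Plaur, Szrd1 and Tnf. Below every week 0 library was 1 gene (0.00856%), Calhm2, a member of a channel family. Csrnp1, a nuclear protein first described as induced by axin, ran from 4.98 to 23.9 CPM (median 9.3) at week 0 and from 30.7 to 89.9 CPM (median 40.2) at week 2. The groups did not overlap, and its log2 fold change was 2.19 ± 0.23 (SE), with an adjusted p of 1.82e-06. Plaur, the urokinase receptor of activated myeloid cells, ran from 3.26 to 21.6 CPM (median 7.5) at week 0 and from 22.4 to 55.4 CPM (median 32.9) at week 2, a log2 fold change of 2.15 ± 0.23 (adjusted p = 1.82e-06). Maff, a small Maf factor induced by cytokines and stress, ran from 0 to 1.48 CPM (median 0.413) and then from 3.01 to 12.9 CPM (median 5.62), a log2 fold change of 3.63 ± 0.4 (adjusted p = 2.34e-06). At week 0 the 6 MIR29B libraries held the lower Maff levels, 0.0 to 0.383 CPM, against 0.443 to 1.48 CPM in the scrambled libraries. Cdkn1a, which encodes the cell cycle inhibitor p21, ran from 1.34 to 7.41 CPM (median 3.62) and then from 8.41 to 67.8 CPM (median 13.7), a log2 fold change of 2.11 ± 0.32 (adjusted p = 0.000144). The smallest changes among the 11 were those of Szrd1 (0.64 ± 0.15) and Arf1 (0.65 ± 0.17), whose libraries spread little within each week.

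**Figure D2:**
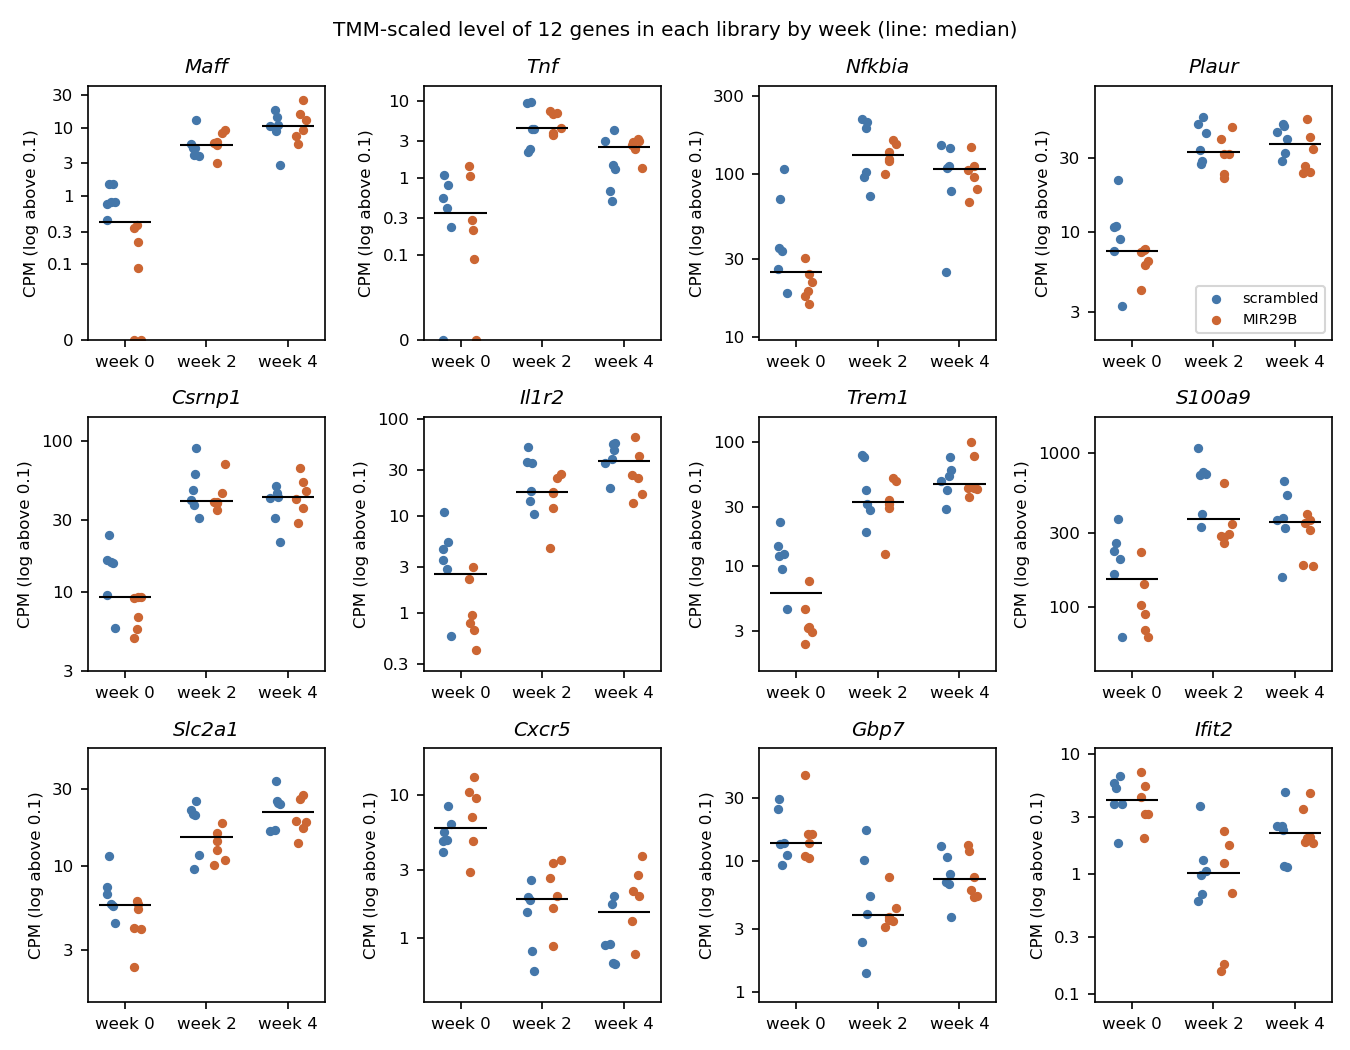
Each panel shows the TMM-scaled CPM of 1 gene (log axis above 0.1 CPM) in the 12 libraries of each week, coloured by arm, with a line at the median. Week 2 points of Maff, Tnf, Plaur and Csrnp1 lie above all week 0 points, Cxcr5, Gbp7 and Ifit2 are lower at week 2, and the week 4 libraries are drawn beside them.

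Among genes for NF-kappa-B subunits and their feedback inhibitors, 10 of 21 tested were higher and none lower, and the median log2 fold change was 0.71. Nfkbia, which encodes the inhibitor that retains NF-kappa-B in the cytoplasm, ran from 15.8 to 107 CPM (median 25.1) at week 0 and from 73.3 to 216 CPM (median 130) at week 2. The highest week 0 library, of the scrambled arm, was the only one to reach the week 2 range, and the log2 fold change was 2.12 ± 0.27 (adjusted p = 2.04e-05). Zc3h12a, a ribonuclease that degrades inflammatory mRNAs, rose by 1.7 ± 0.24 (adjusted p = 6.11e-05), with week 0 levels of 2.11 to 7.16 CPM (median 3.66) and week 2 levels of 6.1 to 23.7 CPM (median 11.7). Nfkbid, a nuclear IkB protein, rose by 1.53 ± 0.26 (adjusted p = 0.000458). The other called members were Bcl3, Nfkbie, Nfkbiz, Rela, Relb, Tnfaip3 and Tnip1, with changes from 0.71 (Rela) to 1.88 (Nfkbiz). The kappa-B consensus lay in 5 of the 11 promoter windows of the called members (45.5%) and in 10 of the 25 windows of all tested members. Without the 3 libraries over 5% ribosomal RNA, 7 members were called higher.

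AP-1 and other immediate early genes, which respond within minutes to hours of a stimulus, counted 12 higher and 1 lower among 32 tested, with a median of 0.58. Beside Csrnp1 and Maff, Snai1, a zinc finger repressor, rose by 3.95 ± 0.57 (adjusted p = 7.76e-05) from 0 to 0.59 CPM (median 0.0847) to 0.284 to 6.31 CPM (median 1.8). Junb, an AP-1 subunit, ran from 83.7 to 217 CPM at week 0 and from 232 to 396 CPM at week 2, with no overlap and a log2 fold change of 0.9 ± 0.18 (adjusted p = 0.00252). Fos, the AP-1 partner of Jun proteins, was the 1 member that fell, by 1.63 ± 0.25 on the log2 scale (adjusted p = 0.000203). Its levels ran from 30.1 to 179 CPM (median 69.8) at week 0 and from 9.35 to 33.5 CPM (median 21.8) at week 2, and the 2 ranges overlapped only at their edges. Fos was below the week 0 mean in all 12 libraries of week 2. Dusp10, a phosphatase that inactivates stress kinases and belongs to no list here, rose by 2.53 ± 0.3 (adjusted p = 6.33e-06), from 0.806 to 4.1 CPM (median 2.06) to 3.97 to 31 CPM (median 11.2).

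Of the cytokines and colony factors, 5 of 14 were higher and none lower. Tnf, a principal inflammatory cytokine, ran from 0 to 1.43 CPM (median 0.347) at week 0 and from 2.22 to 9.87 CPM (median 4.45) at week 2, a log2 fold change of 3.38 ± 0.45 (adjusted p = 2.93e-05). The ranges did not overlap, although Tnf had no count in 2 libraries of week 0. Tgfb1 rose by 0.92 ± 0.19 (adjusted p = 0.00287) and Metrnl, a secreted factor of myeloid cells, by 1.2 ± 0.24 (adjusted p = 0.00185). Il10, an anti-inflammatory cytokine, was fitted at 3.58 ± 0.87 (adjusted p = 0.00924), but rests on 18 counts over the 12 libraries of week 0 and 332 over those of week 2. Its scrambled libraries went from a mean of 0.14 to 2.09 CPM and its MIR29B libraries from 0.0159 to 0.0763 CPM, with 4.28 ± 1.02 in the scrambled and 2.21 ± 1.51 in the MIR29B arm (adjusted p = 0.052 and 0.469). The pooled call was lost without the libraries over 5% ribosomal RNA together with those of lowest length index. The fifth was Ebi3 at 1.01 (adjusted p = 0.0431).

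Chemokines and chemokine receptors counted 7 higher and none lower among 16, with a median of 0.85. With 1 library left out 4 to 8 were called, lowest without the scrambled 3 mg/kg replicate 2 of week 2. Cxcl2, which attracts neutrophils through Cxcr2, ran from 2.33 to 65.9 CPM (median 10.1) at week 0 and from 22.1 to 148 CPM (median 59.8) at week 2, a log2 fold change of 2.17 ± 0.42 (adjusted p = 0.00167). Cxcl1, a related chemokine also on chromosome 5, held 2 counts over the 12 libraries of week 0 and 104 over those of week 2 (adjusted p = 0.000178). The ratio per total count was 47.2, with an exact 95% interval of 12.7 to 395 that covers counting error only. That interval takes each count as independent. All deposited counts were even, so a fragment may count as 2 and the interval may be too narrow. Ccrl2, a receptor that binds chemerin, rose by 1.56 ± 0.3 (adjusted p = 0.00151) and was above the week 0 mean in all 12 libraries. Ccl6, Cxcl3, Cxcl10 and Cxcr4 were also called higher, between 0.77 (Ccl6) and 2.52 (Cxcl3). Cxcl10, a chemokine best known for induction by interferon, thus moved with the other chemokines at 1.57 (adjusted p = 0.0359).

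The interleukin-1 list showed both agonist and antagonist higher. Il1b, the inflammatory cytokine, rose by 1.7 ± 0.31 (adjusted p = 0.000878), with 11.1 to 153 CPM (median 50.6) at week 0 and 77.6 to 356 CPM (median 149) at week 2. Il1rn, the receptor antagonist, rose by 1.19 ± 0.25 (adjusted p = 0.00334). Il1r2, a decoy receptor of neutrophils, rose by 3.08 ± 0.4 (adjusted p = 2.04e-05), from 0.419 to 10.9 CPM (median 2.54) to 4.67 to 51.6 CPM (median 17.8). Il18r1 was lower at -1.34 (adjusted p = 0.025), and lost the call without the libraries over 5% ribosomal RNA. The remaining 17 of 21 members did not pass. Among Toll-like receptors and adaptors, Tlr2, the receptor for bacterial lipopeptides, rose by 2.12 ± 0.31 (adjusted p = 7.76e-05), from 1.53 to 14.2 CPM (median 6.21) to 11.1 to 65.4 CPM (median 23.5). Cd14, the lipopolysaccharide co-receptor, rose by 2.31 ± 0.3 (adjusted p = 2.11e-05), from 6.87 to 62.1 CPM (median 23.1) to 52.2 to 324 CPM (median 131), and the adaptor Myd88 by 0.99 (adjusted p = 0.0126). Tlr1, which pairs with Tlr2 on the cell surface, fell by 1.14 ± 0.26 (adjusted p = 0.00704) and was below the week 0 mean in all 12 libraries. The other 14 of 18 did not pass.

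The neutrophil lists had the highest shares of genes called higher among the lists with at least 5 tested members. Granule and calprotectin genes counted 13 higher and none lower of 19, with a median of 1.23, and surface and activation genes counted 17 higher and none lower of 27, with a median of 1.35, against -0.02 over all genes. S100a9, a subunit of calprotectin, ran from 62.9 to 373 CPM (median 151) at week 0 and from 260 to 1080 CPM (median 375) at week 2, a log2 fold change of 1.61 ± 0.27 (adjusted p = 0.000396). Its partner S100a8 rose by 1.78 ± 0.32 (adjusted p = 0.000739), and the ranges of both overlapped between the weeks. Wfdc21, a small protein of neutrophil granules, rose by 2.24 ± 0.39 (adjusted p = 0.000594). Trem1, a receptor that amplifies inflammatory signals, ran from 2.36 to 22.6 CPM (median 6.05) and then from 12.5 to 78.3 CPM (median 33), a log2 fold change of 2.47 ± 0.31 (adjusted p = 1.93e-05). G0s2, a lipase inhibitor abundant in neutrophils, rose by 2.25 ± 0.33 (adjusted p = 8.64e-05), from 0.764 to 11 CPM (median 2.63) to 5.3 to 33.2 CPM (median 17.2). Lcn2, Mmp8, Mmp9, Ly6g, Csf3r and Retnlg were also among the called members. In bulk blood, more neutrophils and more RNA per neutrophil cannot be told apart.

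The 8 defining neutrophil markers summed to 164 to 1110 CPM at week 0 (median 439) and to 731 to 2780 CPM at week 2 (median 991), and 7 of the 8 were called higher. The scrambled arm went from a median of 614 to 1980 CPM and the MIR29B arm from 308 to 852 CPM. None of these 8 markers was at 0 in all 24 libraries. This sum moved with the inflammatory groups above, and its part in them was not tested. The 5 monocyte markers summed to 319 CPM at week 0 and 345 CPM at week 2 (medians), and none was called. In the wider monocyte and macrophage list, Cd14 and Nr4a1 were higher of 23 tested, a share near the 6.29% of all tested genes. Nr4a1, an orphan nuclear receptor, rose by 0.87 ± 0.25 (adjusted p = 0.0235), and lost the call without the libraries over 5% ribosomal RNA. With the length index as a term 7 members of that list were called higher. Hepatocyte markers Alb, Apoa1 and Ttr were at or near 0, with a highest sum of 1.64 CPM at week 2. Of the 2 tested genes of the hepatocyte list, Hp, which encodes haptoglobin and is also made by neutrophils, rose by 1.69 ± 0.27 (adjusted p = 0.000257).

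**Figure D3:**
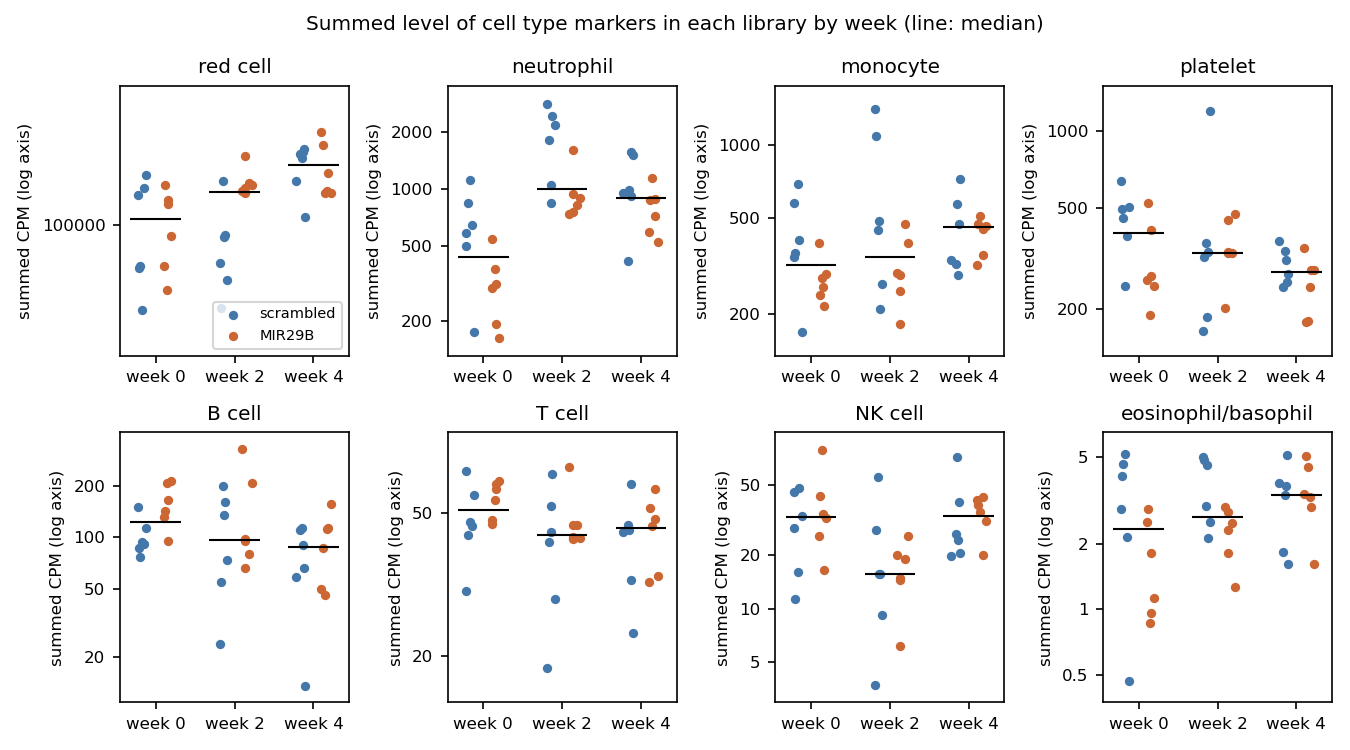
Each panel shows the summed CPM (log axis) of the markers of 1 cell type in the 12 libraries of each week, coloured by arm, with a line at the median. The neutrophil sum has a median of 439 CPM at week 0 and 991 CPM at week 2, and the NK cell sum 32.9 and 15.7 CPM, while the red cell sums of the weeks overlap.

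Effectors of activated myeloid cells counted 15 higher and none lower of 27, with a median of 1.05. Marcksl1, an actin-binding protein induced in macrophages, ran from 1.91 to 17.2 CPM (median 6.19) at week 0 and from 15.7 to 58 CPM (median 32.9) at week 2, a log2 fold change of 2.35 ± 0.28 (adjusted p = 6.9e-06). Cebpb, a transcription factor of emergency granulopoiesis, rose by 1.67 ± 0.25 (adjusted p = 0.000144), from 22.3 to 156 CPM (median 57.3) to 90.7 to 421 CPM (median 177). Acod1, the enzyme that makes itaconate, rose by 3.83 ± 0.73 (adjusted p = 0.00136), from 0 to 2.36 CPM (median 0.39) to 0.709 to 31 CPM (median 7.02). Saa3, an acute phase apolipoprotein of macrophages, rose by 3.36 ± 0.56 (adjusted p = 0.000396). Without the libraries over 5% ribosomal RNA the count was 9 of the 15. Of 8 tested coagulation and fibrinolysis genes 3 were higher. Beside Plaur these were Anxa2, a plasminogen co-receptor, at 1.01 ± 0.24 (adjusted p = 0.00753), and F10, coagulation factor X, at 0.89 ± 0.3 (adjusted p = 0.0497), which lost the call in 18 of the 24 fits that left out 1 library and without the libraries over 5% ribosomal RNA.

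In both lists of interferon-stimulated genes every call was lower, although most members of each were not called. Type I interferon stimulated genes counted none higher and 11 lower of 41 tested, with 38 below 0 and a median of -0.66. Ifit2, an antiviral RNA-binding protein, ran from 1.83 to 7.07 CPM (median 4.16) at week 0 and from 0.156 to 3.7 CPM (median 1.03) at week 2, and fell by 1.83 ± 0.36 on the log2 scale (adjusted p = 0.00167). Its week 2 levels were below the week 0 mean in all 12 libraries. Ifit1bl1 of the same family fell by 1.86 ± 0.42 (adjusted p = 0.00582), and Ifit1, whose promoter is shown above, by 1.22 (adjusted p = 0.035). Rsad2, which encodes viperin and was abundant in these libraries, fell by 0.98 ± 0.26 (adjusted p = 0.0151), from 8080 to 22200 CPM (median 13900) to 2690 to 17100 CPM (median 6230). Eif2ak2, Herc6, Ifih1, Parp14, Slfn5, Usp18 and Xaf1 were the others. Without the libraries over 5% ribosomal RNA only 3 of the 41 were called lower, at a median of -0.6, and Rsad2 was not among them. With 1 library left out 6 to 15 were called lower, lowest without the scrambled 3 mg/kg replicate 1 of week 0.

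GTPases induced by interferon gamma counted none higher and 7 lower of 16, with a median of -1.17. Gbp7, a guanylate-binding protein that acts on vacuoles of microbes, ran from 9.34 to 45.3 CPM (median 13.7) at week 0 and from 1.38 to 17.3 CPM (median 3.83) at week 2, and fell by 1.79 ± 0.32 (adjusted p = 0.000723). Gbp4 fell by 1.45 ± 0.28 (adjusted p = 0.00155). Ifi47, an immunity-related GTPase, fell by 1.22 ± 0.21 (adjusted p = 0.000508), from 11.8 to 24.7 CPM (median 17.8) to 3.92 to 12.4 CPM (median 7.46). Iigp1 was among the lowest folds at -2.72 ± 0.72 (adjusted p = 0.0149), and Gbp3, Gbp5 and Gbp8 were also called. The ranges of Gbp7 and Ifi47 overlapped between the weeks. DESeq2, run as an alternative, called 11 of the 16 lower. Many of these GTPase genes lie in clusters of close paralogs, so reads shared by copies make single members uncertain. Ifi203, an interferon-inducible nucleic acid sensor of such a cluster, fell by 1.49 ± 0.26 (adjusted p = 0.000532). GAAANNGAA lay in 15 of the 35 windows of the tested type I genes (42.9%) and in 9 of the 11 windows of the tested GTPases (81.8%), and in 6 of 11 and 3 of 5 windows of their called members.

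Lymphocyte genes leaned lower with few calls, where 4.59% of all tested genes were called lower. Of 21 B cell genes, 3 were lower and none higher, with a median of -0.45. Cxcr5, the receptor that guides B cells into follicles, ran from 2.88 to 13.3 CPM (median 5.91) at week 0 and from 0.594 to 3.5 CPM (median 1.89) at week 2, and fell by 1.81 ± 0.26 (adjusted p = 8.33e-05). Cr2, complement receptor 2, fell by 1.7 ± 0.3 (adjusted p = 0.000598), from 3.35 to 13 CPM (median 7.12) to 0.332 to 5.53 CPM (median 2.21). Ms4a1, the gene of CD20, was lower at -0.95 ± 0.31 (adjusted p = 0.0459) and lost the call in 17 of 24 fits that left out 1 library and without the libraries over 5% ribosomal RNA. Cd79a, a part of the B cell receptor, was at 0.47 ± 0.33 (adjusted p = 0.362), and the summed B cell markers had medians of 123 and 96.4 CPM with overlapping ranges. Of 24 T cell genes, Il7r, the interleukin-7 receptor, fell by 1.37 ± 0.34 (adjusted p = 0.0115), and Ms4a4b by 0.97 ± 0.23 (adjusted p = 0.00753). Cd3e, the invariant T cell receptor chain, was at -0.15 ± 0.24 (adjusted p = 0.717).

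In the NK cell and cytotoxic list, 25 of 26 tested members had a log2 fold change below 0, with a median of -1.05, but only Klra8 (-2.14 ± 0.57, adjusted p = 0.016) and Klra9 (-1.55 ± 0.46, adjusted p = 0.0296) were called. Both are Ly49 receptors from a cluster of close paralogs, and neither was called without the libraries over 5% ribosomal RNA, where the median was -0.97. DESeq2 called 6 members lower. The 5 NK markers summed to a median of 32.9 CPM at week 0 and 15.7 CPM at week 2, with overlapping ranges of 11.4 to 78.5 and 3.72 to 55.3 CPM. Of 24 platelet genes, P2ry12, the platelet ADP receptor, fell by 1.71 ± 0.33 (adjusted p = 0.00172), and Rgs18 by 1.37 ± 0.32 (adjusted p = 0.00789). No other platelet gene was called, and 4.59% of all tested genes were called lower. Pf4, platelet factor 4, was at 0.12 ± 0.43 (adjusted p = 0.883), and 1 scrambled library of week 2 reached 544 CPM against a week 2 median of 64.3. Of 12 dendritic cell genes only Tcf4, a factor of plasmacytoid cells, was called, at -1.03 ± 0.25 (adjusted p = 0.00924). No member was called of 11 MHC class II genes (Cd74 0.51 ± 0.26, H2-Ab1 0.67 ± 0.25), of 11 eosinophil and basophil genes (Mcpt8 0.95 ± 0.54, Gata2 0.22 ± 0.33) or of 4 endothelial and stromal genes (Pecam1 -0.23 ± 0.18, Flt1 0.2 ± 0.75).

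**Figure D4:**
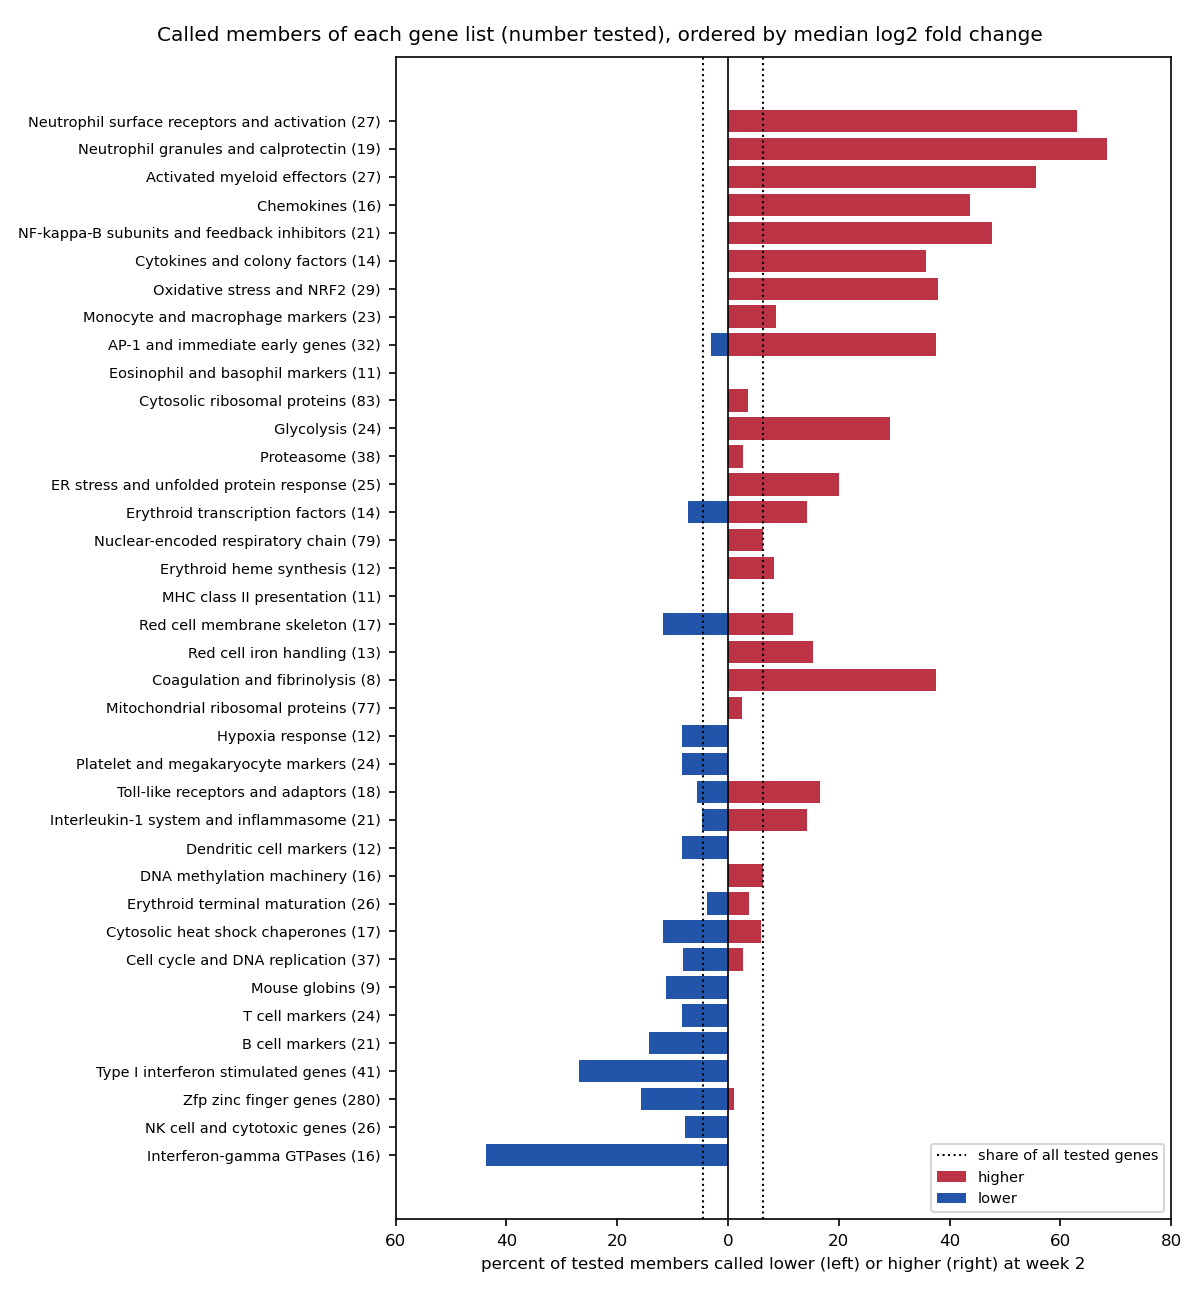
Bars give the percent of tested members of each gene list (number tested in brackets) called higher (right, red) or lower (left, blue) at week 2, with lists ordered by median log2 fold change. Dotted lines mark the 6.29% and 4.59% of all tested genes called higher and lower. The neutrophil lists extend farthest to the right and the interferon gamma GTPases farthest to the left.

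Zinc finger genes with a Zfp symbol, mostly KRAB-type repressors, counted 44 lower and 3 higher of 280, with 214 below 0 and a median of -0.67. Zfp62 fell by 1.34 ± 0.26 (adjusted p = 0.00172), from 3.4 to 8.21 CPM (median 4.71) to 0.594 to 3.87 CPM (median 1.77), and Zfp943 by 1.47 ± 0.29 (adjusted p = 0.00204). Zfp703, which encodes a corepressor of another class, rose by 1.48 ± 0.26 (adjusted p = 0.00077). Zkscan3, a related repressor outside the list, fell by 1.33 ± 0.22 (adjusted p = 0.00032) and was below the week 0 mean in all 12 libraries. Of the Zfp genes, 21 were called lower without the libraries over 5% ribosomal RNA, at a median of -0.71, and 79 with DESeq2. With 1 library left out 28 to 76 were called lower, lowest without the MIR29B 3 mg/kg replicate 3 of week 0. Dkc1, which encodes the pseudouridine synthase dyskerin, fell by 1.96 ± 0.31 (adjusted p = 0.000237), from 12.6 to 67.8 CPM (median 25.5) to 0.951 to 20.6 CPM (median 7.1).

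Cytosolic ribosomal protein genes leaned higher: 79 of 83 had a log2 fold change above 0 with a median of 0.43, against 49.1% of all tested genes above 0, while 3 were called. These were Rplp2 (1.23 ± 0.35, adjusted p = 0.0226), Rps9 (1 ± 0.3, adjusted p = 0.0294) and Rpl8 (0.93 ± 0.3, adjusted p = 0.0437). The nuclear-encoded respiratory chain counted 5 higher of 79, a share near the 6.29% of all genes, with a median of 0.4, and 1 to 6 higher with 1 library left out, lowest without the MIR29B 3 mg/kg replicate 3 of week 0. Among them were Atp5d, an ATP synthase subunit, at 1.57 ± 0.39 (adjusted p = 0.0106), Uqcrc1 at 1.19 ± 0.34, Ndufs3 at 1.32 ± 0.42 and Sdhd. Proteasome genes had 1 called higher of 38, Psmd3 at 0.86 ± 0.26 (adjusted p = 0.0341), and a median of 0.41. Mitochondrial ribosomal protein genes had 2 of 77, Mrps34 at 1.03 ± 0.25 and Mrps30 at 0.58 ± 0.18, and a median of 0.21. In the order given, the medians of these lists in the scrambled arm were 0.78, 0.76, 0.64 and 0.47. In the MIR29B arm they were 0.04, -0.02, 0.07 and -0.07. The pooled lean was thus mostly that of the scrambled arm, and the arms were not tested against each other for these lists. Without the libraries over 5% ribosomal RNA no ribosomal protein or proteasome gene and 1 each of the respiratory and mitochondrial ribosomal genes were called.

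Transcript length moved with these groups. The median transcript was 2848 bases over all tested genes, 2141 over those called higher and 3782 over those called lower, and 830 over the ribosomal protein genes against 3243 over the Zfp genes. In the shortest 25% of transcripts the median log2 fold change was 0.22, with 9.42% called higher and 1.77% lower, and in the longest 25% -0.26, with 2.23% higher and 7.34% lower. With the length index of the libraries as a term, these medians were 0.01 and -0.11. The medians of the ribosomal protein, respiratory chain, proteasome and mitochondrial ribosomal lists then became 0.04, -0.06, 0.02 and -0.02, while that of the Zfp genes was -0.59 with 52 called lower and 7 higher. The neutrophil surface list kept a median of 1.35 and the interferon gamma GTPases -1.16 in that fit. The index is computed from these same counts, so a shift of short-transcript lists toward 0 is partly built into the fit. Whether the libraries or the cells differed in this way was not tested.

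Oxidative stress and NRF2 genes counted 11 higher and none lower of 29, with a median of 0.67. Maff belongs to this list as well as to the immediate early one. Mafk, a second small Maf partner of NRF2, rose by 1.02 ± 0.22 (adjusted p = 0.00348), and Pgd, an enzyme of the pentose phosphate pathway, by 1.43 ± 0.3 (adjusted p = 0.00287). Gsr, Prdx5, Srxn1, Txnrd1, G6pdx and Tkt were also called. Without the libraries over 5% ribosomal RNA 5 members were called, without the MIR29B 3 mg/kg replicate 3 of week 0 alone 6, and with the length index as a term the median was 0.37. Glycolysis genes counted 7 higher and none lower of 24. Slc2a1, the glucose transporter GLUT1, ran from 2.36 to 11.4 CPM (median 5.69) at week 0 and from 9.5 to 25.2 CPM (median 15.1) at week 2, a log2 fold change of 1.48 ± 0.2 (adjusted p = 2.93e-05). Slc16a3, the lactate exporter, rose by 1.57 ± 0.26 (adjusted p = 0.000452) and Gpi1, the isomerase of glucose phosphate, by 1.11 ± 0.19 (adjusted p = 0.000458). Of 12 hypoxia genes only Pdk1, a kinase that inhibits pyruvate dehydrogenase, was called, at -0.61 ± 0.18 (adjusted p = 0.0302), and it lost the call in 7 of 24 fits that left out 1 library and without the libraries over 5% ribosomal RNA.

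Unfolded protein response genes counted 5 higher and none lower of 25. Herpud1, which assists degradation at the endoplasmic reticulum, rose by 0.89 ± 0.17 (adjusted p = 0.00155), the sensor Ern1 by 1.19 ± 0.31 (adjusted p = 0.0134) and the factor Xbp1 by 0.9 ± 0.25 (adjusted p = 0.0226), and Calr and Dnajb9 were also called. Without the libraries over 5% ribosomal RNA 3 members were called, as without the MIR29B 2 mg/kg replicate 1 of week 0 alone, and the Xbp1 call was lost without these and those of lowest length index together. Of 17 genes listed as cytosolic heat shock chaperones, Hspd1, whose product is in fact a mitochondrial chaperonin, fell by 0.85 ± 0.22 (adjusted p = 0.0127). Hsp90aa1, an abundant chaperone here, was lower at -1.1 ± 0.34 (adjusted p = 0.0371), and Bag3 was higher at 1.01 ± 0.33 (adjusted p = 0.0464). Those calls were lost in 15 and 18 of 24 fits that left out 1 library, and both without the libraries over 5% ribosomal RNA. Cell cycle genes counted 1 higher and 3 lower of 37, together near the 10.9% of all tested genes called in either direction. Cdt1, the replication licensing factor, rose by 0.92 ± 0.19 (adjusted p = 0.00287), and the mitotic genes Birc5 (-1.24 ± 0.35), Mki67 (-0.95 ± 0.28) and Cenpe (-1.62) were lower. None of those 3 was called without the libraries over 5% ribosomal RNA.

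Red cell genes, which dominate these libraries, showed few calls in both directions. Alas2, which starts heme synthesis in erythroid cells, ran from 58900 to 116000 CPM (median 93800) at week 0 and from 60000 to 124000 CPM (median 105000) at week 2, and its log2 fold change was 0.07 ± 0.2 (adjusted p = 0.845). Of 12 heme synthesis genes 1 was called, Slc25a38, the mitochondrial glycine importer, at 0.81 ± 0.22 (adjusted p = 0.0175), a call lost without the libraries over 5% ribosomal RNA. In the membrane skeleton list of 17, Epb42, a membrane skeleton protein, was lower at -0.76 (adjusted p = 0.0485). Gypc, glycophorin C, was higher at 0.94 ± 0.26 (adjusted p = 0.0215) and Add2, an adducin, at 1.12 ± 0.36 (adjusted p = 0.0417). None of these 3 genes was called without the libraries over 5% ribosomal RNA.

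Among 14 erythroid transcription factors, Nfe2 (0.79 ± 0.22) and Zfpm1 (1.26 ± 0.39) were higher and Lmo2 (-0.71 ± 0.2) lower, and none was called without those libraries. In terminal maturation, Bnip3l, which clears mitochondria from reticulocytes, was lower at -0.77 ± 0.23 (adjusted p = 0.0259), and Slc2a1 was the other call of 26. That share was below the 10.9% of all tested genes called in either direction. The Bnip3l call was lost without the libraries over 5% ribosomal RNA, and with the length index as a term 7 members of this list were called lower and 2 higher. In iron handling, Fth1, ferritin heavy chain, at 1.17 ± 0.35 (adjusted p = 0.0292) and Hmox1, heme oxygenase 1, at 1.05 ± 0.32 (adjusted p = 0.0334) were higher of 13, and neither held without the libraries over 5% ribosomal RNA. These mice largely lack the mouse globins, and the RNA was globin-depleted. The mouse globin list, which also holds Ahsp, not itself a globin, summed to 4530 to 22500 CPM at week 0. At week 2 it summed to 2880 to 23000 CPM, and the part of each member in these sums is not given here. Hbb-bh2 fell by 2.02 ± 0.48 (adjusted p = 0.00819), from 0.0959 to 10.2 CPM (median 3.06) to 0.0664 to 2.52 CPM (median 0.722). The other 8 tested members of the list were not called. The Hbb-bh2 call was lost without the libraries over 5% ribosomal RNA and of lowest length index together. Reads of the human globin genes could align in part to mouse copies, and this was not tested.

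Of 16 genes of the DNA methylation machinery only Gadd45b was called, and it rose. Gadd45b, a stress-induced factor linked to demethylation and also an NF-kappa-B target, ran from 0.524 to 23 CPM (median 2.86) at week 0 and from 5.94 to 34.6 CPM (median 24.5) at week 2, a log2 fold change of 2.53 ± 0.43 (adjusted p = 0.00045). Dnmt3a, the de novo methyltransferase named in the series title, ran from 0.262 to 4.55 CPM (median 2.37) and then from 0.426 to 5.51 CPM (median 2.47), with a log2 fold change of -0.13 ± 0.38 (adjusted p = 0.85). It was above the week 0 mean in 6 and below it in 6 of the 12 libraries of week 2.

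The largest fitted changes among called genes with at least 1 CPM in the higher week rested in part on few counts. Cstdc5, a stefin-type protease inhibitor, was at 4.39 ± 1.04 with 8 counts over the week 0 libraries and 292 over those of week 2, and had no count in at least 6 libraries of week 0. Sdsl, a serine dehydratase-like enzyme, was at 3.64 ± 0.89 with 32 and 480 counts, and 1 library of week 2 alone reached 19.5 CPM against a week 2 median of 0.731. Sdsl was not called without that library, the scrambled 3 mg/kg replicate 1 of the lowest length index. On the lower side Zfp990 (-3.79 ± 1), Zfp433 (-2.63 ± 0.61), Zfp160 (-2.45 ± 0.54), Zfp60 (-2.27 ± 0.57), Thap2 (-2.32 ± 0.56), Igip (-2.33 ± 0.61), Klra13-ps (-2.19 ± 0.57) and the potassium channel gene Kcnk5 (-2.22 ± 0.48) stood beside Iigp1. Igip and Klra13-ps lost the call without the libraries over 5% ribosomal RNA. Rbm12b1, an RNA-binding protein gene, had the smallest p of these 10 at -2.33 ± 0.4 (adjusted p = 0.000532), from 1.11 to 6.4 CPM (median 3.14) to 0 to 1.88 CPM (median 0.599).

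The change was also fitted in each arm alone. Over all 11678 genes, 69.5% had the same sign in the scrambled and in the MIR29B arm. All 735 genes called higher and all 536 called lower did so. Choosing them by the change averaged over the arms largely fixes that, so it is not read as a result. The arms share no library, and their log2 fold changes correlated at r = 0.51 across genes, which are not independent replicates. With 6 against 6 libraries, 70 genes (0.599%) were called in the scrambled arm, 48 higher and 22 lower, and 342 (2.93%) in the MIR29B arm, 224 higher and 118 lower. Without the libraries over 5% ribosomal RNA these were 0 (1904 at an unadjusted p under 0.05) and 47. Of the pooled calls 27 higher and 12 lower were called in each arm alone. Nfkbia was at 1.64 ± 0.37 in the scrambled and 2.62 ± 0.38 in the MIR29B arm, Plaur at 1.97 ± 0.34 in the scrambled and 2.34 ± 0.34 in the MIR29B arm, S100a9 at 1.64 ± 0.39 in the scrambled and 1.58 ± 0.39 in the MIR29B arm and Fos at -1.89 ± 0.33 in the scrambled and -1.42 ± 0.33 in the MIR29B arm.

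**Figure D5:**
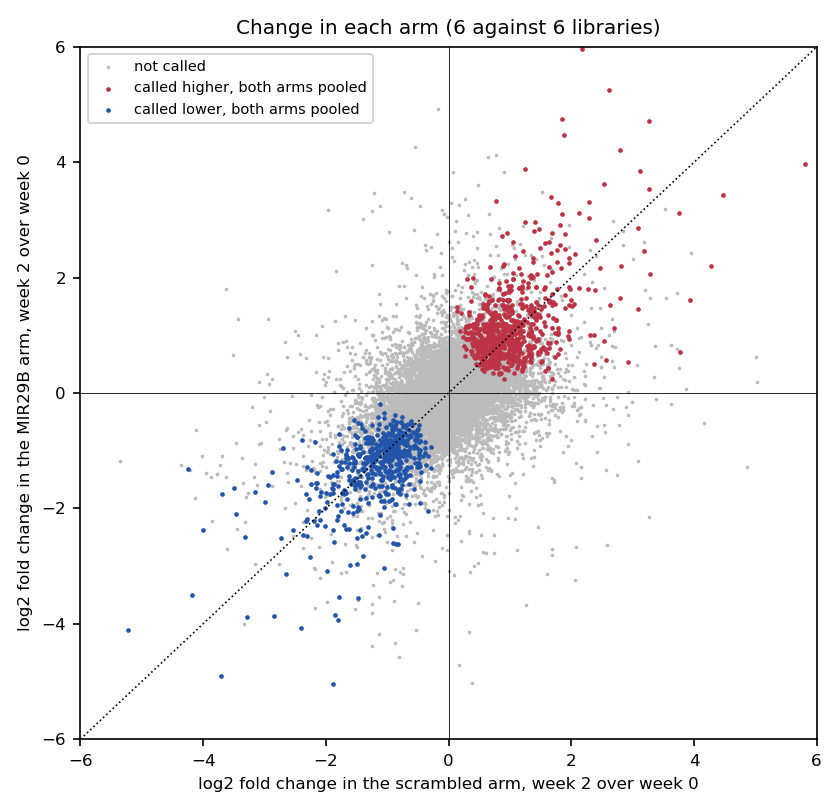
Each point is a gene, with its log2 fold change of week 2 over week 0 in the scrambled arm on the horizontal axis and in the MIR29B arm on the vertical axis (6 against 6 libraries each), and the dotted line marks equal change. Genes called with both arms pooled lie in the upper right (735, red) and lower left (536, blue) quadrants, which the pooled choice of genes largely fixes, and 2 genes lie outside the frame.

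A difference between the arms in the change from week 0 to week 2 was called for 0 genes in edgeR, with 490 (4.2%) at an unadjusted p under 0.05, and for 0 genes in DESeq2. The smallest p belonged to Cit, a citron kinase, with -2.33 ± 0.49 in the scrambled and 0.61 ± 0.45 in the MIR29B arm and a difference of 2.94 ± 0.66 (adjusted p = 0.996). Maff followed, with 2.62 ± 0.43 in the scrambled and 5.25 ± 0.53 in the MIR29B arm and a difference of 2.62 ± 0.66 (adjusted p = 0.996), then Mical3 with a difference of 2.47 ± 0.67 (adjusted p = 0.996). A difference between the doses was likewise called for 0 genes in edgeR, with 906 (7.76%) at an unadjusted p under 0.05, but for 32 genes in DESeq2. The smallest p-values were those of Hbb-b2, an adult mouse beta-globin, with a difference of 4.44 ± 0.92 (adjusted p = 0.461) (3 minus 2 mg/kg), Gsto1, a glutathione transferase, with a difference of 1.78 ± 0.38 (adjusted p = 0.461), and Epn1, an endocytic adaptor, with a difference of 1.59 ± 0.36 (adjusted p = 0.519). A p that misses the threshold does not show that arms or doses responded alike: for Acod1 the scrambled arm changed by 2.17 and the MIR29B arm by 5.96, with an unadjusted p of 0.00515 for the difference. Acod1 was near 0 in the MIR29B arm at week 0, with a median of 0.096 CPM against 1.6 CPM in the scrambled arm. At week 2 its medians were 7.77 CPM in the MIR29B and 6.47 CPM in the scrambled arm.

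At week 4, where 11953 genes were tested over all 36 libraries, 506 were higher and 230 lower than at week 0 (4.23% and 1.92%, or 6.16% in all). The week 0 libraries serve both comparisons, so their values are given side by side and no overlap is read as support. Of the genes called higher at week 2, 316 of 735 were also called higher at week 4, with a median week 4 log2 fold change of 0.65 over the 735. Of those called lower, 100 of 536 were called lower at week 4, with a median of -0.53. Plaur was at 2.15 at week 2 and 2.18 at week 4, Trem1 at 2.47 at week 2 and 2.89 at week 4, Il1r2 at 3.08 at week 2 and 3.78 at week 4 and Maff at 3.63 at week 2 and 4.84 at week 4. Cxcr5 was at -1.81 at week 2 and -2.12 at week 4, and Fos at -1.63 at week 2 and -1.43 at week 4. Nfkbia was at 2.12 at week 2 and 1.62 at week 4, Tnf at 3.38 at week 2 and 2.05 at week 4, Gbp7 at -1.79 at week 2 and -1.1 at week 4 and Zfp62 at -1.34 at week 2 and 0.07 at week 4. The neutrophil surface list had a median of 1.35 at week 2 and 0.87 at week 4, the interferon gamma GTPases -1.17 and -0.45, and the NK list -1.05 and -0.16. A test of week 4 against week 2 was not made here.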

How the data were processed

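The authors deposited a table of raw counts per RefSeq transcript (25856 transcripts), per the labels from globin-depleted peripheral blood RNA (GLOBINclear) in 36 libraries. Per the submitters' processing notes, HISAT2 2.0.5, featureCounts 1.5.0-p3 and GRCm38 were used, with settings not given in the sources used here. All counts were even (0 odd values), so a fragment may count as 2. The transcript with the highest total stood for each of 16812 genes. Transcripts without a symbol (74) held 1.04% to 10.07% of a library's counts and were kept as entries.

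Genes of the 24 libraries were filtered with filterByExpr (minimum count 10, minimum total 15, by 8 groups), scaled with TMM and fitted with edgeR 4.0.16 in R 4.3.3 (arm, dose and week, two-sided quasi-likelihood F test, common dispersion 0.28). Single arms and interactions came from a fit with 8 group means, week 4 from all 36 libraries, and levels from the TMM scaling of all 36. Standard errors (SE) were taken as |log2 fold change| over the root of the F statistic. Calls used a Benjamini-Hochberg adjusted p under 0.05 over all genes tested. The length index of a library is the slope of a gene's log2 level, relative to its mean over libraries, on log2 transcript length, over 2698 genes with a mean of at least 10 CPM.

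Named genes are the 10 highest and 10 lowest folds among called genes that have established symbols and at least 1 CPM in the higher week, the 6 smallest p-values each way, up to 3 called members of each of 40 lists (or the 2 most abundant where none was called), the 3 smallest p-values of each interaction, and Dnmt3a, Alas2, S100a9, Cd79a, Cd3e and Pf4. Further called list members, genes whose weeks did not overlap and Cdkn1a, Junb, Szrd1 and Arf1 were named after their values were seen. The comparison, its members and the lists were chosen with earlier results of these data known. A few genes that the rule named are not reported here. Alternatives were DESeq2 1.42.0, RLE scaling, other filters, a replicate block, sex and length terms, and libraries left out. On simulated data of this comparison, 77 of 200 genes changed 2-fold were recovered with 7 false calls over 11304 genes, and 187 of 200 changed 4-fold with 5 false calls over 11244 genes.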

Additional observations from a re-analysis of the deposited data

How the results depend on the processing

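With both arms pooled, 735 genes were called higher and 536 lower. Called higher were 315 with a replicate block, 358 without the libraries over 5% ribosomal RNA, and 405 without these and the 2 libraries of lowest length index. Called lower were 321, 243 and 298 in the same order, 1044 with DESeq2, 830 with the length index as a term and 865 with all 36 libraries in the fit. Leaving out 1 library at a time gave 503 to 893 higher and 355 to 960 lower, lowest without the MIR29B 3 mg/kg replicate 3 of week 0 and highest without the scrambled 2 mg/kg replicate 1 of week 2. DESeq2 shared 728 of the 735 and 531 of the 536, and the length term 660 and 516. In the scrambled arm the 70 calls became 610 (DESeq2), 543 (no filter on low counts), 107 (counts halved), 284 (length term), 384 (all 36 libraries), and 0 with the replicate block, without the libraries over 5% ribosomal RNA, and without both sets of libraries, and ran from 0 to 274 with 1 library left out. In the MIR29B arm the 342 became 818 (DESeq2), 64 (replicate block), 47 (without over 5% ribosomal RNA), 53 (without both sets), 1212 (length term) and 650 (all 36 libraries), and ran from 102 to 511 with 1 library left out. The arm interaction gave 8 calls with no filter on low counts, and the dose interaction 32 with DESeq2 and 29 with no filter, and both stayed at 0 in all 24 fits that left out 1 library. The cause of these shifts was not tested, apart from the smaller number of libraries in fits that leave some out. The 2 alternatives that leave out the libraries of lowest length index were chosen after the data were seen.

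Of the 106 named genes that were called, 84 held in all 24 fits that left out 1 library, and 70 held in every setting. Only named genes that were not called changed sign. Dnmt3a was at 0.13 with the length term. Gata2 was at -0.02 without the libraries over 5% ribosomal RNA, and Flt1 at -0.02 there and without both sets, and ran from -0.14 to 0.63 with 1 library left out. Mical3 was at -0.08 without the libraries of lowest length index, and ran from -0.17 to 0.29 with 1 library left out. Pf4 was at -0.24 with the replicate block, -0.57 with the length term, -0.17 without the libraries of lowest length index, -0.03 without both sets, and ran from -0.42, without the scrambled 3 mg/kg replicate 1 of week 2, to 0.38 with 1 library left out.

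The labels do not say whether the replicate numbers pair the libraries across weeks, and the check made here could not settle it. Of 12 pairs with the same number 1 correlated above 0.1 (range -0.38 to 0.34), 2 correlated best with their own number, and in 2 the levels of sex-linked genes differed. Weak correlation within groups of 3 libraries does not exclude that some animals were bled at both weeks. The fit with a replicate block is therefore given as an alternative and not as the main fit. Changes of 2-fold were often missed on simulated data of this design, and genes with few counts carry wide errors.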
